A study of Rattus norvegicus with 15 samples.

Results

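Immediate early genes were followed through single molar tooth germs of the rat. The set consisted of 10 genes listed by mouse Ensembl identifier, and it was chosen by the behaviour of 2 of them, Fos (ENSMUSG00000021250) and Egr1 (ENSMUSG00000038418), whose large and widely spread rises at E18 had been seen in these same libraries. The other listed genes were Jun (ENSMUSG00000052684), Junb (ENSMUSG00000052837), Fosb (ENSMUSG00000003545), Ier2 (ENSMUSG00000053560), Atf3 (ENSMUSG00000026628), Dusp1 (ENSMUSG00000024190), Nr4a1 (ENSMUSG00000023034) and Egr2 (ENSMUSG00000037868). A row was found for 9 of the 10 among the 14185 genes of the table, and all 9 passed the filter on low counts. No row was found for Ier2, which is named only. Levels at E18 are therefore given as a description without a test, while the contrast of E17 with E15, which the choice did not use, was tested.

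The libraries came from wild type DA/HanRj rats, with 5 teeth each at E15 (E15.5 in the labels), E17 (E17.5) and E18, and each library was made from 1 tooth. In the study the molar is a bud at E15 and a cap at E17. The E18 labels name the lower first molar. E17 replicates 1 and 2 were the left and the right tooth of 1 embryo. The E18 libraries carry protocol text, sample codes and processing notes of their own. Stage and preparation therefore cannot be told apart in any contrast with E18. The sample code also differs between the E15 and the E17 libraries, and what it stands for is not given in the sources used here. Stage and whatever the code marks therefore cannot be told apart in the contrast of E17 with E15 either.

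Immediate early genes are transcribed within minutes of a stimulus from factors already present in the cell, such as serum response factor at CArG boxes and CREB at cAMP response elements, and many of their transcripts are short-lived. Growth factor receptors reach them through the ERK cascade, which is also the route of FGF signalling in the tooth germ. Fos and Jun family proteins pair into the AP-1 transcription factor, Egr proteins are zinc finger transcription factors, Nr4a1 is an orphan nuclear receptor, and Dusp1 is a phosphatase that switches MAP kinases off again.

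Promoters of the members were read from RefSeq (build GRCr8), from 250 bases before to 50 bases after the start of each gene. Of the 9 members, 6 had such a window: Egr1, Junb, Fosb, Dusp1, Nr4a1 and Egr2. The bases before the start are shown for 4 of them, as examples of the motifs that recur among the members; Egr1, which also holds them, is described in words. They are written 5′ to 3′ on the strand of the gene, and capitals mark TGACG or CGTCA (the core of the cAMP response element on either strand), TGACGTCA (the full element) and the CArG box.
Junb, chr19:40080876-40081125, plus strand: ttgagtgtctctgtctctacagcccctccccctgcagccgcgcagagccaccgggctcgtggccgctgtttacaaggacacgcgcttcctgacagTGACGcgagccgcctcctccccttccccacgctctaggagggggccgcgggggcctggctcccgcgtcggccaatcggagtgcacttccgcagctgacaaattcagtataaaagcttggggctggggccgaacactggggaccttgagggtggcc
Dusp1, chr10:17184603-17184852, plus strand: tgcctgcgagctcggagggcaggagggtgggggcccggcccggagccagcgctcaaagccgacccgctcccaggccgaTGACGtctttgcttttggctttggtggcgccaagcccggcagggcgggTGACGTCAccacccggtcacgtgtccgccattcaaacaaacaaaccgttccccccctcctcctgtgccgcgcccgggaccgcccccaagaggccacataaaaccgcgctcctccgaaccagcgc
Egr2, chr20:21054442-21054691, minus strand: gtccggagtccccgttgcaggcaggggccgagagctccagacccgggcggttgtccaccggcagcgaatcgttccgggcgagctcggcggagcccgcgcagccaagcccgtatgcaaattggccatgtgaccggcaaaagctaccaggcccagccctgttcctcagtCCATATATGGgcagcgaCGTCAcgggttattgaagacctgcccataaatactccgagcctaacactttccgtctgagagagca
Nr4a1, chr7:134259888-134260137, plus strand: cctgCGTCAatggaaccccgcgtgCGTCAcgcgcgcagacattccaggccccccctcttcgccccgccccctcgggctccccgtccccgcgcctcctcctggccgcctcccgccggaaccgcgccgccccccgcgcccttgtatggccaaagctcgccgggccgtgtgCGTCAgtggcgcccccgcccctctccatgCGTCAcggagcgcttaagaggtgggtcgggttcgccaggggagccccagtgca

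Both strands of the whole 300-base windows were searched. The core of the cAMP response element stood in 5 of the 6 members' windows, all but that of Fosb, and in 21.2% of 33469 promoters of the same length. Nr4a1 held 4 copies. The full element, which contains the core in both orientations, was found in Dusp1 alone among the 6 and in 1.83% of all promoters. A CArG box was found in Egr1 and Egr2 and in 1.64% of all promoters. In both genes a CArG box began at position -83 from the gene's start and a core of the cAMP response element at -66, and Egr1 had a further CArG box at -105. The AP-1 site, spelled TGANTCA, was in none of the 6 windows and in 7.33% of all promoters, and TATAAA was in 2 (Fosb and Junb) and in 14.2%. These matches describe letters in a window and no binding was measured.

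Library totals ran from 10993502 to 27571541 counts, and levels are given as normalized counts, that is counts divided by the DESeq2 size factor of the library, which compare teeth but not genes. Markers of dental epithelium (5 of 9 listed had an identifier and a row) and dental mesenchyme (7 of 7) were present in every tooth. E18 replicate 3 stood apart: across genes it correlated with the remaining E18 libraries at 0.853 on average, against 0.943 to 0.952 for these. E15 replicate 3 did so to a lesser degree (0.941, against 0.967 to 0.975 for the other E15 libraries), and it lies in the tested contrast: without it 2881 genes in place of 2315 were called between E15 and E17, with the same number of members (2). In whole teeth, fewer cells that express a gene and less RNA per cell cannot be told apart.

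Fos, the founding member of its family, had its highest levels at E18 in all 5 teeth. The normalized counts were 43.9, 29.6, 18.8, 17.6 and 55.9 in E15 replicates 1 to 5. At E17 they were 28.4, 82.6, 61.6, 37.3 and 59.7. At E18 they were 493, 105, 711, 457 and 1208. No E18 tooth overlapped either earlier stage, but replicate 2 lay close above the E17 teeth and the others far above them. The mean was 595 ± 406 at E18 (SD, n = 5) against 53.9 ± 21.4 at E17, a log2 fold change of 3.46 (SE 0.549).

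Fosb, which pairs with Jun proteins as Fos does, had the largest difference of the set. Its normalized counts lay between 4.14 and 21.1 at E15 and between 13.1 and 27.2 at E17, where each library held only 4 to 24 counts of the gene. At E18 they were 555, 57.6, 669, 423 and 1467 in replicates 1 to 5. All E18 teeth again lay above all earlier teeth, with replicate 2 the lowest. The log2 fold change was 4.96 (SE 0.704) against E17 and 5.79 (SE 0.766) against E15.

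**Figure D1:**
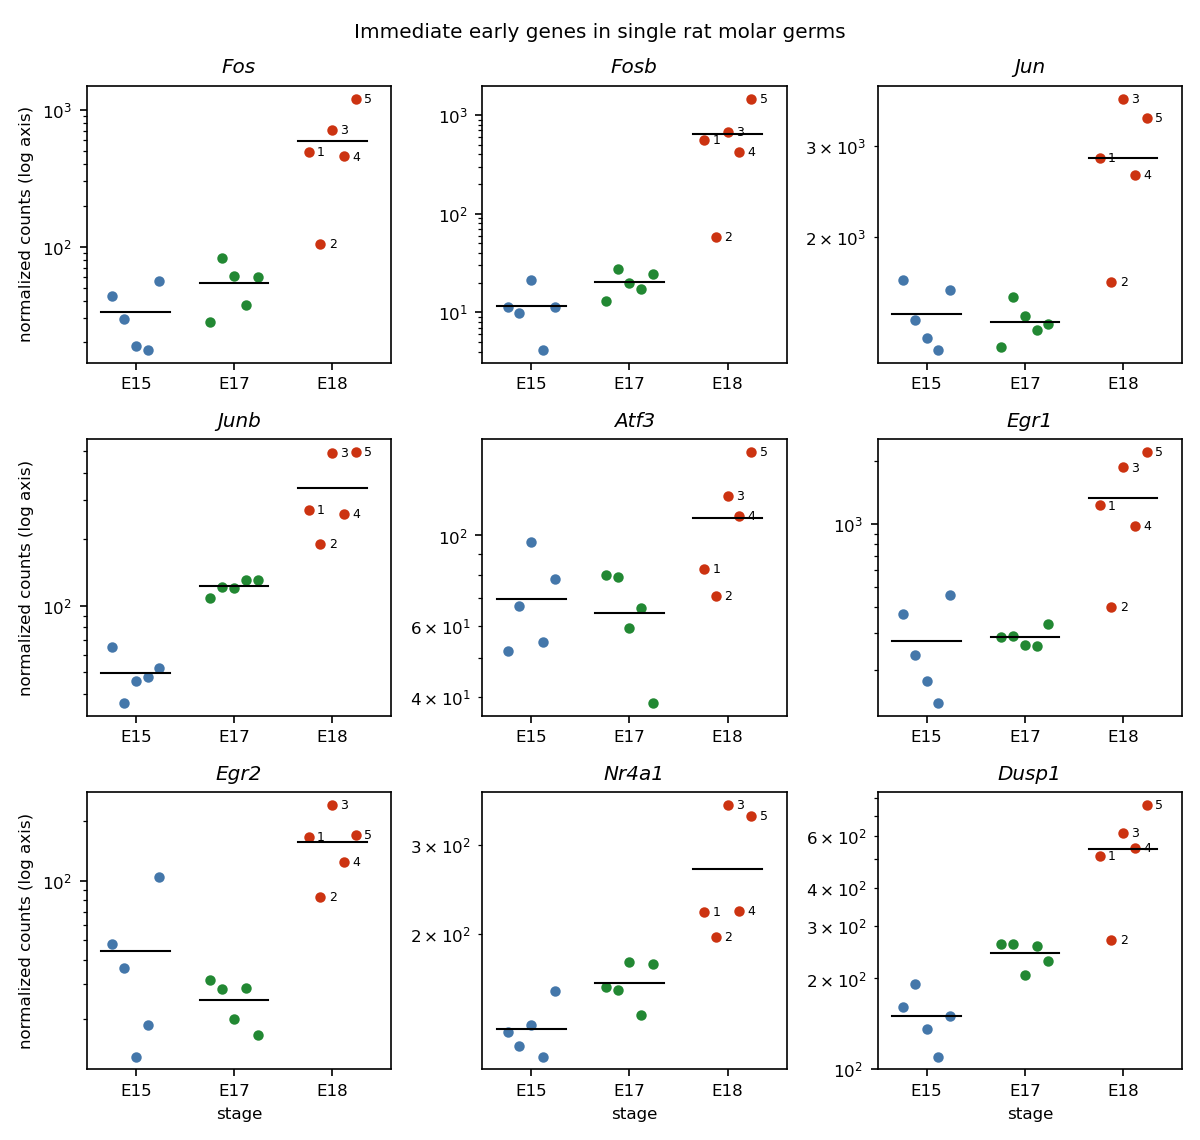
Normalized counts (log axes) of the 9 immediate early genes in each tooth at E15, E17 and E18, with 1 point per tooth, the mean as a black line and the replicate number beside each E18 point. The E18 points lie above all E17 points in every panel except Atf3, and replicate 2 is the lowest E18 point throughout.

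The Jun partners of these proteins had smaller differences. Jun was at 1216 to 1656 normalized counts at E15 and 1232 to 1536 at E17, and its E18 teeth were at 2846, 1643, 3693, 2639.5 and 3392. Replicate 2 lay above all E17 teeth but within the E15 range. The log2 fold change of Jun against E17 was 1.05 (SE 0.183).

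Junb, a Jun family member with weaker activating capacity than Jun, was at 65.0, 36.2, 45.8, 47.6 and 52.6 normalized counts in the E15 teeth. The E17 teeth had 108, 122, 121, 131 and 131. The E18 teeth had 272, 190.0, 491, 261 and 498. The 3 stages did not overlap, and the log2 fold change of E18 against E17 was 1.48 (SE 0.256).

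Atf3, a stress-responsive factor of the same leucine zipper superfamily, was the member with the least separation. Its normalized counts were 52.0 to 96.3 at E15, 38.7 to 79.8 at E17 and 71.1 to 161 at E18. E18 replicate 2 fell within the range of both earlier stages, and the log2 fold change against E17 was 0.77 (SE 0.259).

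Egr1 had 372, 237, 177, 139 and 457 normalized counts in E15 replicates 1 to 5. Its E17 teeth were close together, at 287, 292, 263, 261 and 333. Its E18 teeth were at 1227, 399.7, 1867, 980.4 and 2218. Every E18 tooth lay above every E17 tooth, whereas replicate 2 lay below E15 replicate 5. The mean was 1338 ± 720.2 (SD, n = 5) at E18 against 287 ± 28.9 at E17, with a log2 fold change of 2.22 (SE 0.367).

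Egr2, the close relative of Egr1, had 47.7, 36.2, 12.9, 18.6 and 105 normalized counts at E15. The E17 teeth were at 31.7, 28.3, 19.97, 28.8 and 16.6. At E18 it was at 166, 83.4, 242, 125 and 170.1. The E18 teeth were all above the E17 teeth, and E15 replicate 5 reached into the E18 range. The log2 fold change was 2.65 (SE 0.299) against E17 and 1.84 (SE 0.494) against E15.

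Nr4a1 and Dusp1 had smaller differences between stages. Nr4a1, the nuclear receptor, was at 115 to 154 normalized counts at E15, 139 to 176 at E17 and 197 to 359 at E18, a log2 fold change of 0.74 (SE 0.183) from E17 to E18. Dusp1, whose product ends MAP kinase signals, was at 109.7 to 192, 205 to 261 and 269.7 to 759, a log2 fold change of 1.16 (SE 0.224) from E17 to E18. For both genes no E18 tooth overlapped any E17 or E15 tooth, although Dusp1 in E18 replicate 2 was only 1.11 times the E17 mean.

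Over the set, all 5 E18 teeth lay above all 5 E17 teeth for 8 of the 9 members, all except Atf3, against 4.18% of the genes compared. Against E15 the same held for 5 of the 9 (Fos, Junb, Fosb, Dusp1 and Nr4a1), against 12.7% of genes. Both counts describe the contrast on which the set was selected, and nothing is read from them. They were the same without E18 replicate 3, and they were 9 and 8 without replicate 2, where the share of all genes was not computed. The summed level of the epithelial markers also separated E18 (10790.1 to 13941 normalized counts) from E17 (8366 to 9694) and E15 (4345 to 6613). The mesenchymal sum was 90028 to 172776 at E15, 169134 to 302587 at E17 and 227764 to 304307 at E18. Most of this sum was Col1a1, a matrix collagen, with means of 87435, 198559 and 240282 normalized counts at E15, E17 and E18. The means of the patterning factors Msx1 (4726, 3505.5 and 3188) and Pax9 (2818, 2224 and 1988) and of Pdgfra (11323, 9351 and 7501) were lower at each later stage. The remaining markers of the list did not move in 1 direction. They were the patterning factor Barx1 (2690, 2309 and 2659), Postn (19450, 24443 and 18836) and Dcn (1091, 2047 and 2028). Bone and osteoclast markers (3 of 7 listed had an identifier and a row: Mmp9, Spp1 and Tcirg1) summed to 341 to 495, 570.4 to 1800.2 and 1029 to 2114, with Spp1 at 0 in at least 1 E15 tooth. The part of these tissues in the members' levels was not tested. Endothelial, blood, muscle, cartilage, glial and heat shock markers were not analysed here.

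The E18 teeth had nearly the same order from gene to gene. Replicate 2 was the lowest E18 tooth for 9 of 9 members, against 12.1% of all genes. Replicate 5 was the highest for 6 members (12.6% of all genes), and replicate 3, the library that stood apart, was the highest for Jun, Nr4a1 and Egr2. Replicate 3 was also the highest tooth for 38.2% and the lowest for 40.8% of all genes. The set was selected on widely spread E18 levels, so this order is a description and nothing is read from these shares.

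Each E18 tooth was set against the mean of the E17 teeth. In replicate 2 the median ratio over the 9 members was 1.39, with Atf3 at 1.10 and Egr2 at 3.33 as the extremes. It was 2.22 in replicate 1, 2.25 in replicate 4, 3.999 in replicate 3 and 4.06 in replicate 5, whereas the median over all genes was between 0.986 and 0.999 in the 5 teeth. Fosb had the largest ratio of the set in 4 teeth, from 20.8 in replicate 4 to 72.2 in replicate 5. In replicate 2 the Fosb ratio was 2.84 and that of Egr2 was the largest. The Fos ratio went from 1.96 in replicate 2 to 22.4 in replicate 5. Because the set was selected on rises at E18, nothing is read from the difference between members and all genes.

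**Figure D2:**
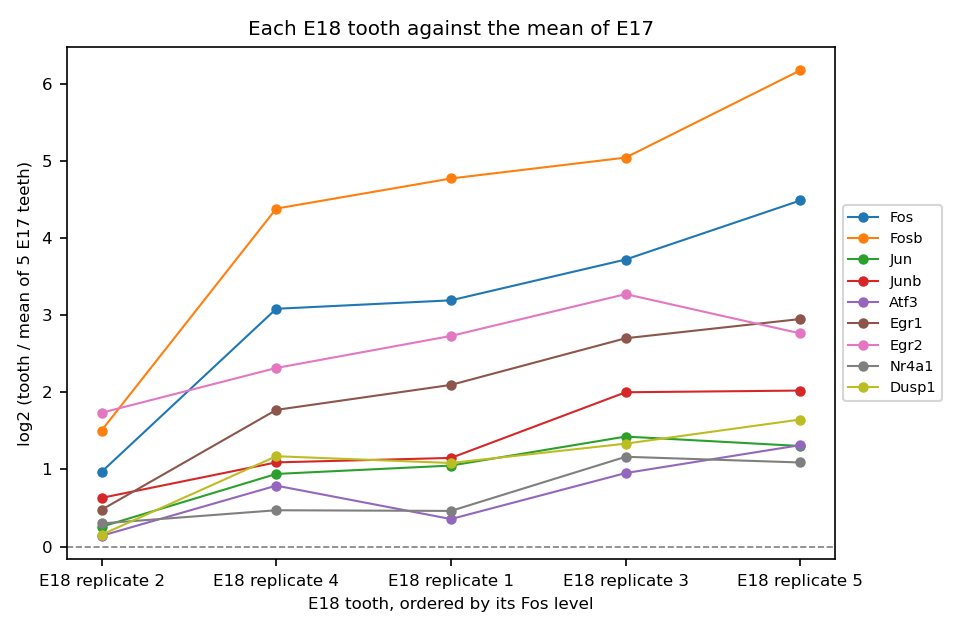
Log2 ratio of each E18 tooth to the mean of the 5 E17 teeth for the 9 members, with 1 line per gene and the teeth ordered by their Fos level. All points lie above 0, every line is lowest at replicate 2, and the Fosb and Fos lines climb furthest, to 6.17 and 4.49 in replicate 5.

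Depth, side and marker levels of the E18 teeth are given beside this order. Replicate 2 had the smallest library of all and replicate 1 the largest, and replicate 1 was neither the highest nor the lowest tooth for any member. The right teeth at E18 were replicates 2 and 4, which had the lowest Fos levels of the stage. At E17 the right teeth were replicates 2 and 5, with Fos at 82.6 and 59.7, and at E15 replicates 1 and 4, with 43.9 and 17.6. Replicate 2 also had the highest epithelial marker sum of E18 (13941) and the lowest mesenchymal (227764) and bone marker sums (1029). Replicate 5 was second in the epithelial sum (13344), and the part of depth, side or tissue makeup in the order was not tested.

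Between bud and cap stage, the contrast that the choice of genes did not use, Junb and Dusp1 rose and no other member passed the test. Junb went from 49.4 ± 10.5 normalized counts at E15 to 123 ± 9.55 at E17 (SD, n = 5 per stage), a log2 fold change of 1.30 (SE 0.175, edgeR adjusted p = 0.000214). Dusp1 went from 149.5 ± 30.6 to 243 ± 24.8, a log2 fold change of 0.70 (SE 0.145, edgeR adjusted p = 0.00443). In both genes the lowest E17 tooth exceeded the highest E15 tooth, which held for 2 of the 9 members and for 9.23% of genes. The 2 of 9 members called stand beside 18.3% of the 12627 genes tested that passed in either direction and 11.3% that passed as higher at E17, so the share in the set was near that of all genes.

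The other 7 members did not pass. Fosb had a log2 fold change of 0.83 (SE 0.389, edgeR adjusted p = 0.161) and Fos one of 0.70 (SE 0.368, edgeR adjusted p = 0.216). Fos therefore had an estimate as large as that of Dusp1 with a wider error, and its E15 and E17 teeth overlapped. Nr4a1 had 0.31 (SE 0.125, edgeR adjusted p = 0.104) and Egr2 had -0.81 (SE 0.477, edgeR adjusted p = 0.270). Egr1 (0.06, SE 0.262), Jun (-0.04, SE 0.0913) and Atf3 (-0.09, SE 0.242) had adjusted p-values of 0.786 to 0.915 in the same edgeR fit.

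**Figure D3:**
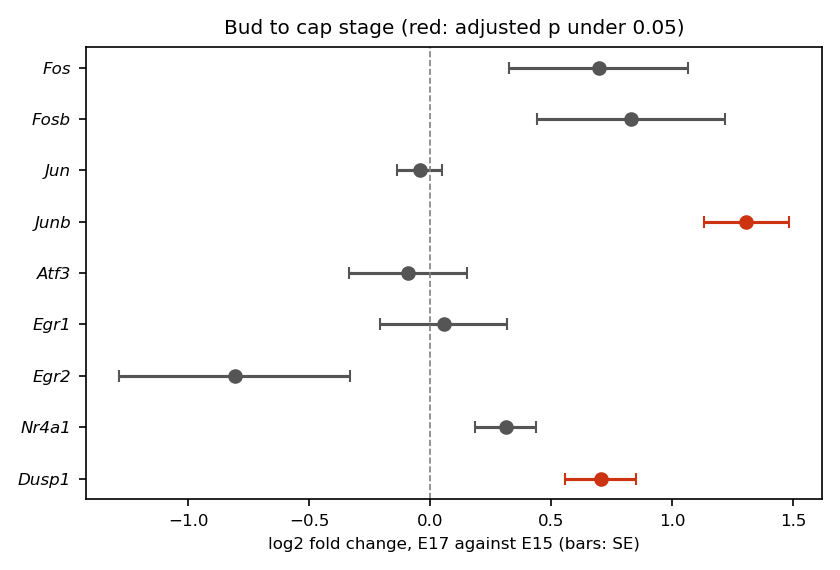
Log2 fold change of E17 against E15 for each member (points) with its SE (bars), with genes past an adjusted p of 0.05 in red. Junb (1.30) and Dusp1 (0.70) are the red points, and the bars of Fos, Fosb and Egr2 are the widest.

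Some members differed widely between teeth already at the earlier stages. The SD of the log2 level of Fos was 0.71 at E15 and 0.60 at E17, larger than in 94.7% and 97.3% of 12133 genes, those whose mean was 20 normalized counts or more. Egr1 had an SD of 0.72 at E15, larger than in 94.8% of these genes, but 0.14 at E17, larger than in 52.8%. Egr2 had an SD of 1.15 at E15 (97.6% of genes) and 0.38 at E17 (91.2%). Jun was ordinary at both stages, with 0.19 (51.5%) and 0.12 (42.4%). Fos had 16 to 81 counts per library at these stages and Egr2 had 11 to 94, so that counting error is part of their spread.

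The left and right tooth of the shared E17 embryo gave the extremes of their stage for 3 members. Fos was at 28.4 in the left and 82.6 in the right tooth, Jun at 1232 and 1536, and Fosb at 13.1 and 27.2. In each case these teeth were the lowest and the highest of the 5. Dusp1 (261 in both teeth), Atf3 (79.8 and 79.2), Nr4a1 (157 and 155) and Egr1 (287 and 292) were nearly equal in the pair, and no error can be given for a single embryo.

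Whether the members moved together between teeth of one stage was tested on the 10 teeth of E15 and E17, with each log2 level taken as a deviation from its stage mean. Jun followed Fos most closely, with a Pearson r of 0.943 (n = 10 teeth, two-sided exact permutation of teeth within stages, p = 0.000625) and a Spearman rho of 0.952 (exact permutation p = 0.000417). Without the 2 teeth farthest from the median of Fos, E15 replicate 4 and E17 replicate 1, r was 0.913. The test treats the left and right tooth of the shared E17 embryo as independent. With that pair averaged, r was 0.926 (exact permutation p = 0.0122, n = 9). Only 0.0238% of 12626 genes, Jun itself included, had an r with Fos at least as high. The deviations were unequal in size, since the SD of Fos was several times that of Jun. Adjusted over all 12626 genes, the exact permutation test gave p = 0.282 for Jun. This was the smallest adjusted value, which Jun shared with other genes, so that 0 genes passed. Before adjustment 1272 genes had an exact permutation p under 0.05. The unadjusted exact p was under 0.05 for 2 of the 8 members, Jun and Egr1.

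Egr1 had an r of 0.772 with Fos (exact permutation p = 0.015, n = 10), a rho of 0.721 (exact permutation p = 0.0420) and an r of 0.813 without the same 2 teeth, and 2.28% of genes had an r at least as high. At E15 both genes were high in replicates 1 and 5 and low in 3 and 4, whereas at E17 the Egr1 levels differed little. Egr2 had an r of 0.595, Nr4a1 0.580, Junb 0.432, Fosb 0.407 and Dusp1 0.276, with unadjusted exact permutation p-values of 0.108 to 0.512. Fosb had an r of -0.24 without the 2 teeth farthest in Fos and of 0.921 without E15 replicate 3, so its value rests on single teeth. Atf3 had an r of -0.19 (exact permutation p = 0.616).

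The median r of the 8 members with Fos was 0.506, against -0.00933 over all genes, and 7 of the 8 were above 0, against 49.4% of all genes. The genes share the same 10 libraries and are not independent of each other. With 5 teeth, E18 was too small for a correlation of its own, and the order of its teeth is given above.

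**Figure D4:**
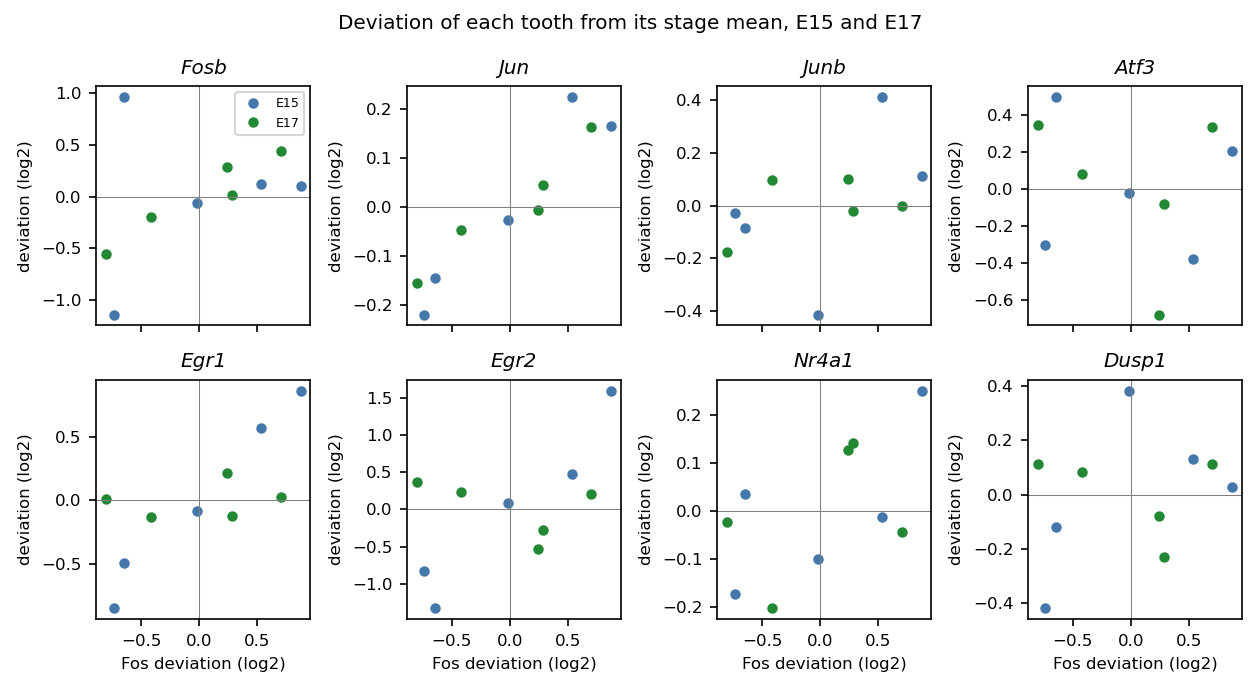
Deviation of each tooth from its stage mean for Fos (horizontal, log2) against each of the 8 other members (vertical, log2), with E15 and E17 teeth in separate colours. The Jun points lie along a line (r = 0.943), the E15 points of Egr1 rise with Fos, and Atf3 shows no rise (r = -0.19).

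Receptors, intracellular components and transcription factors that the study's pathway table places under FGF, the cascade upstream of the members, were read in the same fit. Of 49 listed genes 47 had a row and were tested, and 12 passed the test between E15 and E17, 9 higher and 3 lower at E17. That is 25.5% of the list, beside 18.3% of all genes tested, with a median log2 fold change of 0.07 against -0.01 over all genes. Among the genes that passed, the 3 largest rises were those of STAT transcription factors. They were Stat6 (0.49, SE 0.0710, edgeR adjusted p = 0.000389), Stat3 (0.48, SE 0.0614, edgeR adjusted p = 0.000153) and Stat5b (0.48, SE 0.0654, edgeR adjusted p = 0.000254). Fgfr4 (0.77) and Stat5a (0.66) had larger estimates but did not pass. The 3 falls that passed were those of the kinase Jak2 (-0.32, SE 0.0600, edgeR adjusted p = 0.00243), the receptor Pdgfra (-0.27, SE 0.0852, edgeR adjusted p = 0.0452) and the adaptor Frs2 (-0.24, SE 0.0704, edgeR adjusted p = 0.0305). The list thus held genes of cytokine and PDGF signalling too. None of the 3 falls passed in every alternative: Pdgfra lost its call in 7 of the 10 fits that left out 1 library and Frs2 in 5, both when the teeth of 1 embryo were summed (edgeR adjusted p = 0.0531 and 0.0517), and Jak2 with all 15 libraries in one fit (edgeR adjusted p = 0.455). Spry2 (0.47) and Spry4 (0.46), feedback inhibitors of this cascade, were among the genes that rose.

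Genes with a pattern like that of Fos were sought over all 15 teeth among 327 genes that could be given a symbol and whose mean was 50 normalized counts or more. The highest Pearson r of log2 levels belonged to Col4a1 (0.874), a basement membrane collagen, Bcl11b (0.871), a zinc finger transcription factor, the ligand Wnt6 (0.851), the proteoglycan Sdc1 (0.846) and Tcirg1 (0.846), a proton pump subunit. For Egr1 they were Notch3 (0.832), Col4a1 (0.824), Dlx3 (0.818), Bcl11b (0.815) and Wnt6 (0.814). Among the members, Egr1 (0.969), Fosb (0.969), Jun (0.966), Dusp1 (0.938), Nr4a1 (0.935) and Junb (0.910) had a higher r with Fos than any of these genes, whereas Egr2 (0.857) lay below Col4a1 and Bcl11b and Atf3 (0.687) below all 5. These values describe patterns across stages and carry no test. They include the E18 levels on which the set was selected, so nothing is read from the higher r of members. Most genes had no symbol and could not be named. Among all 11219 genes of this level, 0.357% had a higher r with Fos than Col4a1 and 0.847% a higher one than Tcirg1. For the members Junb, Egr2 and Atf3 this share was 0.152%, 0.615% and 9.61%, and it was smaller for the remaining members. The tooth that was lowest for every member differed among the 5 genes named for Fos. In E18 replicate 2 Bcl11b was at 2516 normalized counts, above its E18 mean of 2388, and Wnt6 was at 587 against 558. Col4a1 (19767 against 22379.5), Sdc1 (4634 against 4836) and Tcirg1 (508 against 666) were below theirs in that tooth, and Tcirg1 had its lowest E18 level there.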

How the data were processed

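RNA of single DA/HanRj rat molar germs was sequenced. The study's methods name the Ovation Rat RNAseq System and cover the E15 and E17 teeth, whereas the E18 libraries have protocol text of their own. The authors deposited estimated counts from salmon (version 0.99.0 in the submitters' processing notes, which also name Rnor_6.0) for 14185 genes in 15 libraries, under mouse Ensembl identifiers and as whole numbers, so that rounding changed none. The authors also deposited HTSeq counts of reads aligned with STAR for the E15 and E17 libraries (10), with 32883 rat genes. These were used only for the count of genes called, since no table used here joins rat identifiers to symbols. Neither table is normalized or corrected for gene length, and the use of strand in counting is not given in the sources used here.

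Symbols of Fos, Egr1 and Jun came from the study's 399 pairs of symbol and identifier, of which 356 had a row, and the others from the list of members. E17 and E15 were compared with edgeR 4.0.16 (R 4.3.3; quasi-likelihood test, TMM, filterByExpr, Benjamini-Hochberg adjustment over all genes, threshold 0.05), with the 10 libraries of these stages in the fit. The same model gave fold changes and SE for E18, with no p. Normalized counts used size factors of DESeq2 1.42.0. Correlations used log2(normalized count + 1) and all 14400 rearrangements of teeth within stages, which can give no p under 6.94e-05. Scripts were tested on simulated data. Libraries of the same stage differed by a chi-square of 6.21 to 156 per gene (30 pairs), so that no pair was close enough to be 1 library. A gene without counts could have had up to 3 in a library, or 1.45 to 3.68 normalized counts, which covers counting error only. Replicate numbers follow accession order. E17 replicates 1 and 2 share an embryo. The edgeR p-values weigh the difference between stages against the spread between teeth, with this pair counted as independent.

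The members, the lists of pathway genes and markers and the tests were chosen with earlier results of these data known. Named were all members with a row and the 3 largest rises and falls past the threshold among the FGF genes. Also named were the 5 genes with a symbol most like Fos and the 5 most like Egr1. Of 65 markers listed, 15 had an identifier and a row. Alternatives were other normalizations and filters, all libraries in one fit, 1 library left out, teeth of 1 embryo joined, the HTSeq table, other pseudocounts and scales, and Egr1 in place of Fos. The HTSeq table was not used for single members.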

Additional observations from a re-analysis of the deposited data

Results flagged for a closer look

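Each of the 9 members was examined at each of the 3 stages for a tooth far from the other 4, by Dixon's ratio at its 95% critical value of 0.71. None of the 27 groups held such a tooth, where about 1.35 would be met by chance. At E18 this says little, since the members were chosen for their wide spread there, and in 5 teeth a wide upper spread keeps the ratio of a low tooth small.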

How the results depend on the processing

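The members called between E15 and E17 numbered 2 in every alternative run. All 126 alternative values of the E18 fold changes had the same sign, including those with DESeq2 size factors, which were added after seeing the data, and those without E18 replicate 3. Because the set was selected on rises at E18, nothing is read from these signs. With all 15 libraries in one fit, the genes called between E15 and E17 fell from 2315 to 1450 and the FGF genes from 12 to 7; the cause was not tested. Over the other alternatives they ranged from 1746 to 2881 and from 9 to 16.

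Members with all E18 teeth above all E15 teeth numbered 5 to 8 when 1 E18 tooth was left out, and the 8 came without replicate 2, the lowest tooth. Without that tooth all 9 members lay above E17. The share of all genes was not computed with a tooth left out. These counts describe the contrast on which the set was selected, and nothing is read from them.

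The count of members correlated with Fos was 1 of 8 (Jun), adjusted over these 8 relations, which were chosen genes. It was 1 to 2 with 1 tooth left out, the second gene being Fosb without E15 replicate 3 and Egr1 without E17 replicate 1 or 3. It was 2 with both teeth of 1 embryo averaged (Egr1, r = 0.935), 0 with Egr1 in place of Fos, and 7 with all 15 teeth, which include those that chose the genes.

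Some signs turned. With 1 library left out, the log2 fold change between E15 and E17 ranged from -0.12 to 0.30 for Egr1, from -0.10 to 0.0173 for Jun and from -0.19 to 0.0530 for Atf3. The r with Fos ranged from -0.385 to 0.0118 for Atf3 (0.379 with all 15 teeth) and from -0.0545 to 0.426 for Dusp1.

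No paired analysis was possible because replicate numbers follow accession order and name no litter, day or embryo across stages. Fosb and Egr2 had as few as 4 and 11 counts in a library, which limits their early levels. The HTSeq alternative was not run for single members, whose rat identifiers were not joined to symbols.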
